A study of Mus musculus with 12 samples.

Results

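Aminoacyl-tRNA synthetases, the enzymes that load each amino acid onto its tRNA, were compared as a cytosolic and a mitochondrial class in mouse liver under endoplasmic reticulum (ER) stress. A list of 20 cytosolic and 16 mitochondrial symbols was used, with symbols ending in 2 taken as mitochondrial. Where a gene had several probe sets, the brightest on average over the 12 arrays stood for it. A probe set was found for 35 of the listed genes, 19 cytosolic and 16 mitochondrial. All 35 passed the filter on dim probe sets, out of 14568 genes tested; Dars was not analysed here. Mars was read under the newer symbol Mars1, and 12 of the 35 genes had 1 probe set.

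The livers came from 3-month-old C57Bl/6J mice. Control mice (Fe+CRE+) and Ire1α conditional null mice (Fe-CRE+) both carried CRE, so the vehicle-treated controls did too. Each genotype received tunicamycin at 2 µg per gram of body weight or a dextrose vehicle by intraperitoneal injection, and liver RNA was taken 8 hours later. There were 3 arrays in each of the 4 groups. Neither the promoter driving CRE nor the deleted part of the Ire1α gene (Ern1) is given by the labels.

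Tunicamycin blocks N-linked glycosylation and so loads the ER with unfolded protein. Ire1α is an ER membrane kinase and RNase that splices Xbp1 mRNA; the parallel Perk branch raises translation of ATF4, a transcription factor for amino acid import, amino acid synthesis and tRNA charging. Most cytosolic and mitochondrial synthetases are separate enzymes from separate nuclear genes. Gars and Kars supply both compartments, and Eprs charges both glutamate and proline tRNAs. Several cytosolic synthetases sit together in the multi-synthetase complex, held by the scaffold proteins Aimp1, Aimp2 and Eef1e1.

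The trimmed mean intensity of the arrays lay between 227 and 302. Of the 12 arrays, null tunicamycin 2 stood apart: 7 of 8 kidney markers read over 1 log2 unit above their highest level elsewhere, for example Umod at 13.14 against at most 6.55. Summed kidney marker intensity spanned 174 to 25167 in the null tunicamycin group and 151 to 197 on the arrays of the other groups. The bile duct cell markers also stood out on null tunicamycin 2. Their median deviation from the control vehicle mean was 3.33 log2 units there and at most 0.59 on any other array. Hepatocyte marker sums were 63360 to 67736 across all arrays. All marker sums were taken after quantile normalisation, which gives every array the same brightest values. The hepatocyte sums therefore cannot show whether hepatocyte content was constant. The actin 5' to 3' signal ratio, a measure of RNA integrity, averaged 0.757 ± 0.323 with vehicle and 0.328 ± 0.0533 with tunicamycin in control livers (SD, n = 3). In null livers it averaged 0.500 ± 0.179 and 0.309 ± 0.116. The Gapdh ratio averaged 0.528 and 0.556 in control livers and 0.372 and 0.401 in null livers. With tunicamycin the mean actin ratio was thus lower and the mean Gapdh ratio higher in both genotypes, the latter by less than the SD of the vehicle arrays. In control livers the actin ratios did not overlap, at 0.454 to 1.10 with vehicle and 0.295 to 0.389 with tunicamycin. In null livers they overlapped, at 0.296 to 0.633 and 0.205 to 0.434. Between the genotypes under tunicamycin the Gapdh ratios did not overlap, at 0.523 to 0.577 in control and 0.370 to 0.435 in null livers. Of the 6 Kupffer cell and macrophage markers, 1 fell with tunicamycin in each genotype, a share near that of all genes called lower (13.3% and 9.23%). Their median changes were -0.66 and -0.57, negative in 5 of 6 in control and 6 of 6 in null livers, and the list summed to 3633 to 11671. Of the adipose markers, Cidec alone passed the filter and rose by 1.37 and 1.17 (limma adjusted p = 0.0142 and 0.0431). The 3 with a probe set had low sums, 22.3 to 93.7 on the vehicle arrays and 94.1 to 213 on the tunicamycin arrays. These ranges almost met. Cidec did not overlap within either genotype but did over the pooled arrays. Its deviation from the control vehicle mean was 0.90 on control vehicle 1, and 0.56 and 0.85 on null tunicamycin 2 and 3. The part of the adipose markers in the results was not tested. The part of these differences in the synthetase results was not tested beyond the fits named below. Ern1 was read by 5 probe sets and does not check the labels, since the deleted part is not given. Its brightest probe set had deposited intensities of 1436 ± 372 with vehicle and 3387 ± 389 with tunicamycin in control livers (SD, n = 3), and of 1238 ± 219 and 3611 ± 1345 in null livers. In whole liver, fewer cells of a type and less RNA per cell cannot be told apart.

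The stress response was present in both genotypes, from a list of 12 genes of the ATF4 amino acid response. Of these, 9 rose with tunicamycin in control livers and 9 in null livers, where 11.6% and 7.59% of all tested genes were called higher, with median log2 changes of 2.07 and 2.26. The list's median deviation from the control vehicle mean was 3.33 on null tunicamycin 2, the array with kidney markers. It was 1.99 and 2.22 on null tunicamycin 1 and 3 and 1.99 to 2.12 on the control tunicamycin arrays, so these medians do not rank the genotypes. Atf4 itself rose by 2.11 ± 0.14 (SE) in control and 2.05 ± 0.14 in null livers (limma adjusted p = 1.45e-06 and 3.8e-06). Ddit3, the stress transcription factor CHOP, rose by 6.01 ± 0.24 and 5.37 ± 0.24 (limma adjusted p = 3.95e-08 and 2.14e-07).

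Promoter sequence was matched in RefSeq (GRCm38.p6) for 12 cytosolic and 14 mitochondrial genes, over 300 bases from 250 before to 50 after a RefSeq transcript start. The letters TGATGNAA, on either strand, describe the composite element bound by ATF4 with C/EBP proteins. They were found in 5 of the 12 cytosolic genes and in 0 of the 14 mitochondrial genes. In the same window they occurred in 3.97% of all 32851 promoters and in 3.03% of the 11610 tested genes that had one. The 5 promoters are shown because they are the only matched synthetase promoters with the element; each stretch runs from 130 bases before to 20 after the start, 5' to 3' on the gene's strand, with the element in capitals.
Aars, chr8:111033712-111033861, plus strand: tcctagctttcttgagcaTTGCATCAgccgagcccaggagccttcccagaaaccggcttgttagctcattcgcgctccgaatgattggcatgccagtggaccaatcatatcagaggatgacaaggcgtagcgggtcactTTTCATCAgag
Gars, chr6:55037871-55038020, plus strand: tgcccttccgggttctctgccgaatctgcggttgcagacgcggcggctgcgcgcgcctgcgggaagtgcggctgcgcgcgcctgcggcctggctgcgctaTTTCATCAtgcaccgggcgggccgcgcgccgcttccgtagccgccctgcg
Iars, chr13:49682000-49682149, plus strand: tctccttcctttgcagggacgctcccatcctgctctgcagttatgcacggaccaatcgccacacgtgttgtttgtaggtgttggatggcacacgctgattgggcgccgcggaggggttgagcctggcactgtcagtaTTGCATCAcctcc
Tars, chr15:11399639-11399788, minus strand: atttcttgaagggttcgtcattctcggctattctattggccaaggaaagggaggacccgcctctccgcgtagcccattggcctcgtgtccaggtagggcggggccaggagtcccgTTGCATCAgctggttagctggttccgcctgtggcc
Yars, chr4:129189773-129189922, plus strand: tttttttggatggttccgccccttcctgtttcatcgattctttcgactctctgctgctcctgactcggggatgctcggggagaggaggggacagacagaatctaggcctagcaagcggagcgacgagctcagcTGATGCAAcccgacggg
Aars held 2 copies, from -112 to -105 and from 10 to 17 relative to the start. The single copies lay from -30 to -23 in Gars, 8 to 15 in Iars, -15 to -8 in Tars and 4 to 11 in Yars. The element ran on the minus strand of the gene in Aars, Gars, Iars and Tars and on the plus strand in Yars. The ER stress element, CCAAT and CCACG separated by 9 unspecified bases, was in 0 of the synthetase promoters and in 0.119% of all promoters, so no window held both. In the ATF4 list, Asns, Trib3 and Chac1 held TGATGNAA, 3 of 12 genes.

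With tunicamycin in control livers, 14 of the 19 cytosolic synthetases rose and 1 fell, where 25.0% of all tested genes were called in either direction, 11.6% higher and 13.3% lower. The rises ran from 1.47-fold to 7.51-fold. Of the 16 mitochondrial synthetases 3 rose and 1 fell. The median log2 change was 1.04 over the cytosolic class, 0.01 over the mitochondrial class and -0.11 over all genes. A gene was called at a limma Benjamini-Hochberg adjusted p under 0.05 over all 14568 genes, and changes are differences of log2(intensity + 16) after quantile normalisation. The tunicamycin and vehicle arrays did not overlap, with tunicamycin higher, for 15 of 19 cytosolic and 4 of 16 mitochondrial genes, against 18.0% of all genes; with tunicamycin lower these were 1 (Mars) and 2 (Hars2 and Iars2), against 24.5%. Centring array medians in place of quantile normalisation, or keeping the deposited scale, moved the median of all genes to -0.01 or 0.01. The split over all genes then moved from 1693 higher and 1943 lower to 2100 and 1181 or 2062 and 1068, and the classes to 16 cytosolic and 4 mitochondrial genes higher with 0 lower in both settings.

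**Figure D1:**
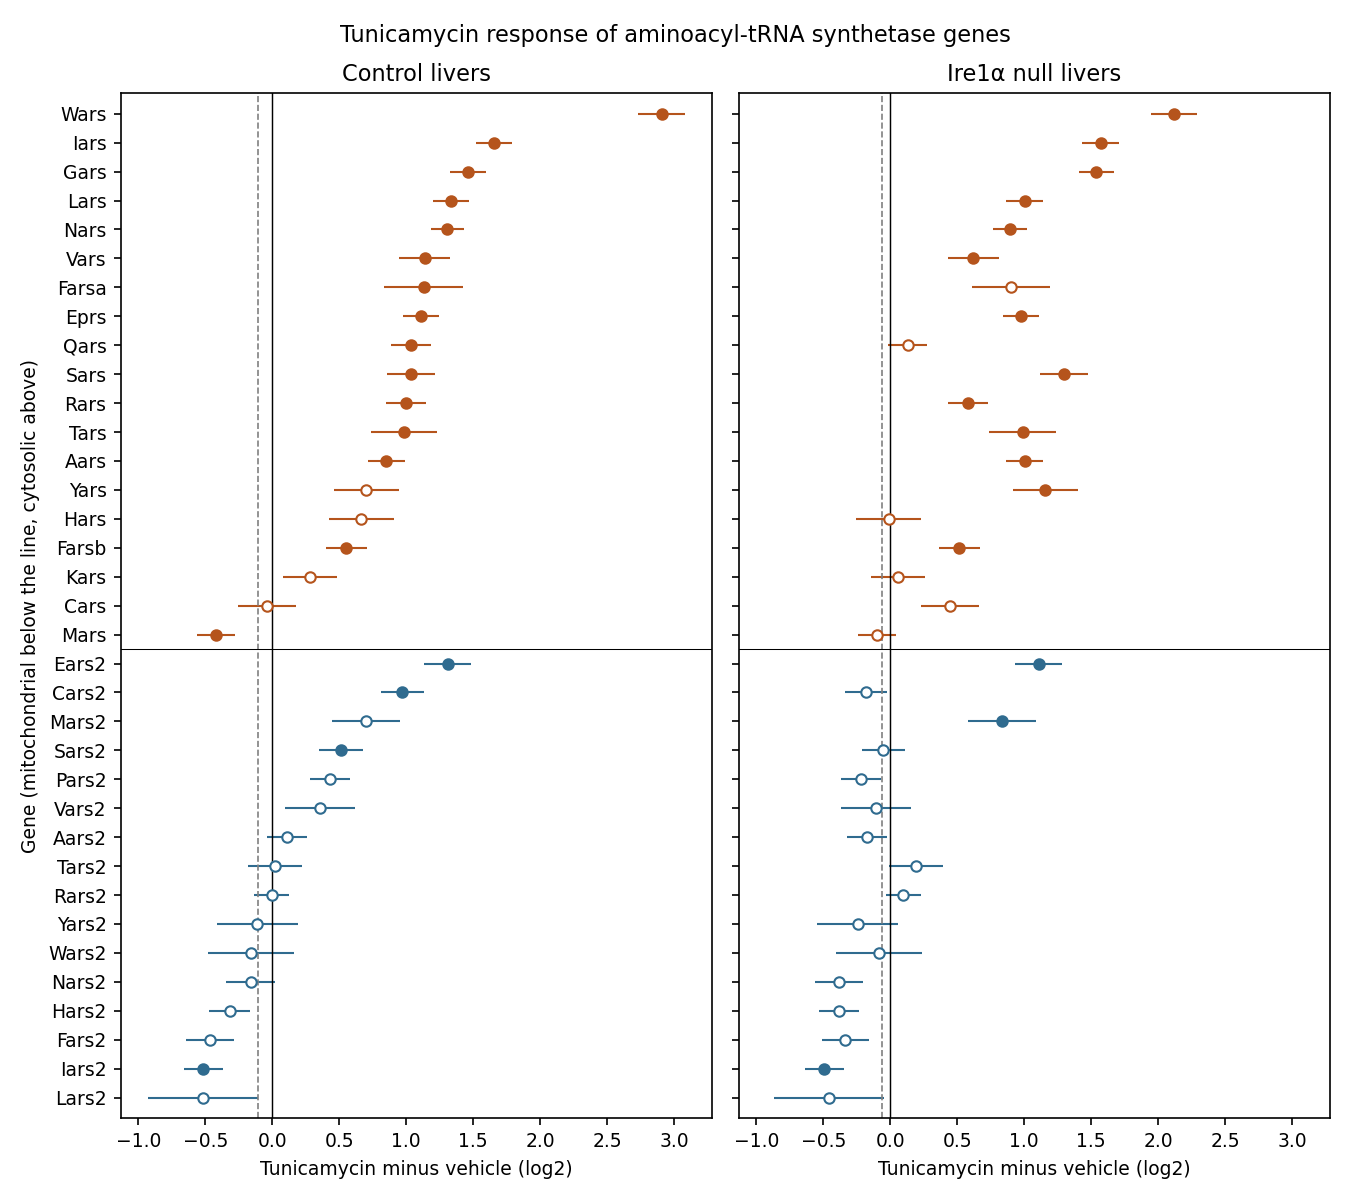
Log2 change with tunicamycin against vehicle (horizontal axis) for each of the 35 synthetase genes (rows), in control livers at left and Ire1α null livers at right. Points are limma estimates with SE bars, filled where the adjusted p was under 0.05; cytosolic genes are orange above the line and mitochondrial genes blue below it, and the dashed line is the median of all genes. Cytosolic genes ran up to 2.91 in control and 2.12 in null livers, and mitochondrial genes up to 1.31 and 1.11.

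Wars, which charges tryptophan and is also an interferon-induced gene, moved furthest among the 35 genes. Its log2 level was 7.41, 7.56 and 7.43 on the control vehicle arrays and 10.28, 10.54 and 10.31 with tunicamycin. Every tunicamycin array was thus far above every vehicle array. The rise was 2.91 ± 0.17 (SE; limma adjusted p = 5.4e-07), and its 4 probe sets gave rises from 1.93 to 3.49. Iars, the isoleucine enzyme of the multi-synthetase complex, read 9.97, 9.96 and 9.79 with vehicle and 11.70, 11.63 and 11.37 with tunicamycin, a rise of 1.66 ± 0.14 (limma adjusted p = 6.64e-06). Gars, the glycine enzyme of both compartments, read 9.56, 9.66 and 9.67 with vehicle and 11.03, 11.18 and 11.08 with tunicamycin, a rise of 1.46 ± 0.13 (limma adjusted p = 1.23e-05). Neither gene's groups overlapped.

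Lars, the leucine enzyme, rose by 1.33 ± 0.14 (SE), and Nars, for asparagine, by 1.31 ± 0.12. Vars for valine, Farsa for the catalytic subunit of the phenylalanine enzyme, Eprs for glutamate and proline, Qars for glutamine and Sars for serine rose by 1.14, 1.13, 1.11, 1.04 and 1.04. Rars for arginine, Tars for threonine, Aars for alanine and Farsb, the other phenylalanine subunit, rose by 1.00, 0.98, 0.85 and 0.55. All of these had limma adjusted p of 0.0207 or less, and 10 of the 19 cytosolic genes changed by at least 2-fold. Qars read 9.90, 9.94 and 10.10 with vehicle and 11.02, 11.22 and 10.81 with tunicamycin. Mars, for methionine, had the only called fall of the class, from 9.43, 9.49 and 9.51 to 9.03, 9.26 and 8.89 (-0.42 ± 0.14, limma adjusted p = 0.0492). Its change was -0.23 with centred medians and -0.21 on the deposited scale, both uncalled. Yars for tyrosine (0.70, adjusted p = 0.0548), Hars for histidine (0.67, 0.0687), Kars for lysine (0.28, 0.342) and Cars for cysteine (-0.04, 0.915) did not pass the limma threshold.

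The fall of Mars lost its call in 19 of 26 alternatives, among them without any 1 array other than control tunicamycin 2 and null tunicamycin 1 and 2 (-0.44 to -0.33, limma adjusted p 0.0544 to 0.165). Farsb lost its call without control vehicle 2 or 3 or control tunicamycin 1 or 2 (0.48 to 0.55, limma adjusted p 0.0530 to 0.0880), and Farsa, Farsb and Tars lost theirs with the actin ratio as a covariate (0.71, 0.56 and 0.69). With probe sets averaged per gene Farsa was 0.42 and uncalled (limma adjusted p = 0.135).

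Among mitochondrial genes, Ears2, for glutamate, rose by 1.31 ± 0.17 (SE; limma adjusted p = 0.000192). Its levels were 7.42, 7.26 and 7.18 with vehicle and 8.61, 8.62 and 8.54 with tunicamycin, with no overlap. Its 3 dimmer probe sets changed by 0.03 to 0.41 in control livers, so the size of the rise rests on the brightest probe set. Cars2, for cysteine, read 8.09, 7.90 and 8.12 with vehicle and 8.98, 9.26 and 8.78 with tunicamycin. It rose by 0.97 ± 0.16 (limma adjusted p = 0.000906), while its cytosolic counterpart Cars did not pass. Sars2, for serine, went from 6.87, 6.66 and 6.90 to 7.08, 7.29 and 7.59, a rise of 0.51 ± 0.16 (limma adjusted p = 0.0383). Iars2, for isoleucine, fell from 8.20, 8.18 and 7.96 to 7.62, 7.68 and 7.49 (-0.52 ± 0.15, limma adjusted p = 0.0232), the opposite direction to Iars.

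The other mitochondrial genes did not pass. Mars2 for methionine and Pars2 for proline changed by 0.70 and 0.43 (limma adjusted p = 0.0659 and 0.0559), and Vars2, Aars2, Tars2 and Rars2 by 0.36, 0.11, 0.02 and -0.01. Yars2, Wars2, Nars2, Hars2 and Fars2 changed by -0.11, -0.16, -0.16, -0.32 and -0.47. Lars2 varied most between arrays, at 7.77, 8.69 and 9.62 with vehicle and 7.65, 8.00 and 8.89 with tunicamycin, and its groups overlapped. Sars2 lost its call without any control vehicle array, control tunicamycin 2 or 3, or null tunicamycin 1 (0.37 to 0.56, limma adjusted p 0.0505 to 0.145). Iars2 lost its call without control vehicle 1 or 2 or control tunicamycin 1 or 3 (-0.53 to -0.46, limma adjusted p 0.0553 to 0.0794), and with centred medians (-0.37) or the deposited scale (-0.35).

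**Figure D2:**
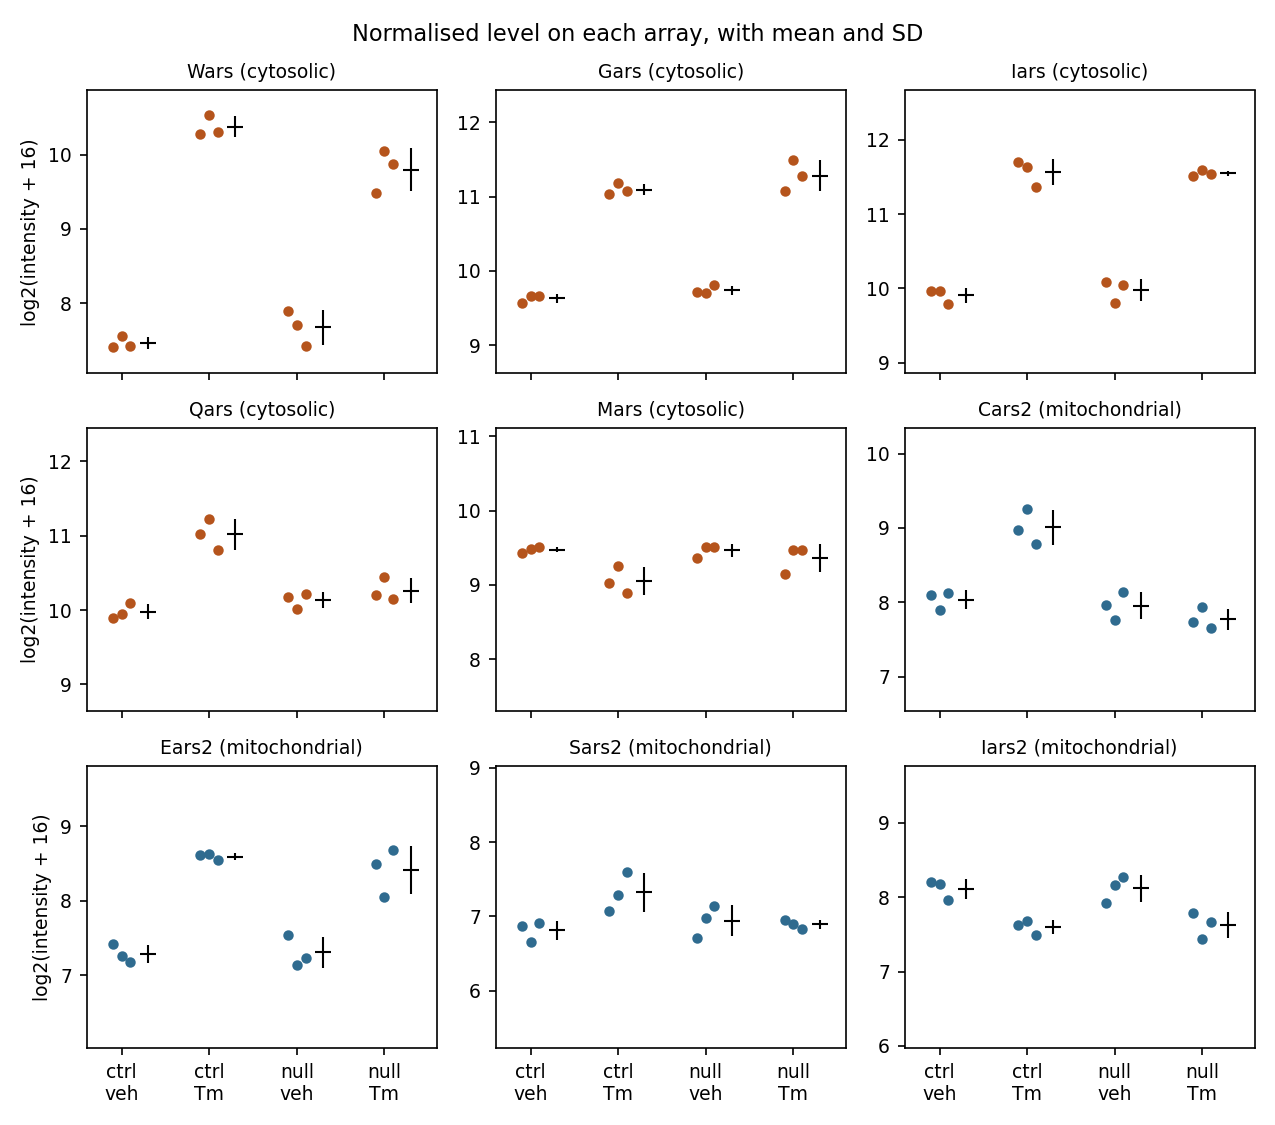
Normalised level, log2(intensity + 16), of 9 synthetase genes on each array in the 4 groups (ctrl, control; null, Ire1α null; veh, vehicle; Tm, tunicamycin), with the group mean and SD as a cross to the right of the 3 points; each panel has its own range of equal height. Wars, Gars, Iars and Ears2 were higher on every tunicamycin array of both genotypes, and Qars and Cars2 on those of control livers.

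With tunicamycin in Ire1α null livers, 13 of the 19 cytosolic synthetases rose and 0 fell, where 16.8% of all tested genes were called, 7.59% higher and 9.23% lower. Of the 16 mitochondrial genes, 2 rose and 1 fell. Median log2 changes were 0.90 over the cytosolic class, -0.18 over the mitochondrial class and -0.07 over all genes. The mitochondrial median was -0.04 with centred array medians and 0.03 on the deposited scale, so its sign depended on the scaling. Arrays did not overlap, with tunicamycin higher, for 13 of 19 cytosolic and 2 of 16 mitochondrial genes, against 13.6% of all genes; with tunicamycin lower these were 0 and 2 (Hars2 and Iars2), against 19.4%. Over all genes the split was 1105 higher and 1344 lower, and 1256 and 703 with centred medians or 1477 and 512 on the deposited scale.

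Wars again moved furthest, from 7.89, 7.71 and 7.43 on the null vehicle arrays to 9.48, 10.04 and 9.87 with tunicamycin. The groups did not overlap, and the rise was 2.12 ± 0.17 (SE; limma adjusted p = 1.49e-05). Iars went from 10.09, 9.80 and 10.05 to 11.52, 11.59 and 11.54 (1.57 ± 0.14, limma adjusted p = 2.38e-05). Gars went from 9.72, 9.70 and 9.81 to 11.08, 11.49 and 11.27 (1.54 ± 0.13, limma adjusted p = 2.16e-05). Sars, Yars, Aars, Lars, Tars and Eprs rose by 1.30, 1.16, 1.00, 1.00, 0.99 and 0.98, and Nars, Vars, Rars and Farsb by 0.89, 0.62, 0.58 and 0.51. Farsa, Cars, Qars, Kars, Hars and Mars did not pass, at 0.90, 0.44, 0.13, 0.06, -0.01 and -0.10. Qars read 10.20, 10.45 and 10.14 with tunicamycin against 10.18, 10.01 and 10.21 with vehicle, and those groups overlapped.

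Ears2 rose in null livers too, from 7.54, 7.14 and 7.23 to 8.49, 8.05 and 8.69 (1.11 ± 0.17 SE, limma adjusted p = 0.0012). Its dimmer probe sets changed by -0.54 to 0.30, and the mean of its probe sets gave 0.19 (limma adjusted p = 0.42). Mars2 rose from 6.07, 5.77 and 6.17 to 6.93, 6.50 and 7.07 (0.83 ± 0.26, limma adjusted p = 0.0445). Iars2 fell from 7.92, 8.16 and 8.28 to 7.79, 7.44 and 7.66 (-0.49 ± 0.15, limma adjusted p = 0.0397), as in control livers. Cars2 read 7.96, 7.77 and 8.13 with vehicle and 7.73, 7.93 and 7.65 with tunicamycin, groups that overlapped (-0.18 ± 0.16, limma adjusted p = 0.492). The remaining 12 mitochondrial genes changed by -0.46 to 0.19 with no call.

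Without null tunicamycin 2, the array with kidney markers, 11 cytosolic genes rose and 0 fell, and 2 mitochondrial genes rose and 0 fell. Rars, Vars, Farsb and the fall of Iars2 were lost and Farsa passed (1.07, limma adjusted p = 0.0415). Calls near the threshold also rested on other arrays. Vars was lost without any 1 of 9 arrays, that is any but control vehicle 1 and 3 and null vehicle 2 (0.48 to 0.70, limma adjusted p 0.0506 to 0.157). Farsb was lost without any 1 of 9 arrays, that is any but control vehicle 1 and 3 and control tunicamycin 3 (0.39 to 0.59, limma adjusted p up to 0.128). Rars was lost without null vehicle 1 or null tunicamycin 2 or 3 (0.47 to 0.58, limma adjusted p 0.0595 to 0.0811), and Tars without null tunicamycin 3 (0.96, limma adjusted p = 0.055). Mars2 was lost without any 1 of 7 arrays, control vehicle 2, control tunicamycin 3, any null vehicle array or null tunicamycin 1 or 3 (0.72 to 0.91, limma adjusted p 0.0517 to 0.138). Iars2 was lost without any 1 of 8 arrays, control vehicle 2, any control tunicamycin array, null vehicle 2 or 3 or null tunicamycin 2 or 3 (-0.51 to -0.40, limma adjusted p 0.0516 to 0.133), and with centred medians or the deposited scale (-0.33 and -0.25).

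Across the genotypes, 12 of the 19 cytosolic genes were called higher in both, 2 in control livers alone (Farsa and Qars), 1 in null livers alone (Yars) and 3 in neither. Of all 14568 genes, 870 were called higher in both, 823 in control livers alone, 235 in null livers alone and 1021 lower in both. Of the 16 mitochondrial genes, 1 was called higher in both (Ears2), 1 lower in both (Iars2) and 11 in neither. A call in 1 genotype alone does not show that the genotypes differ; that difference is tested by the interaction given further on. Each array's median deviation from the control vehicle mean gave the same separation of the classes. The cytosolic median exceeded the mitochondrial median by 0.80 to 1.14 on the control tunicamycin arrays and by 0.71 to 1.12 on the null tunicamycin arrays. On the vehicle arrays the gap was -0.06 to 0.01 in control and -0.08 to 0.12 in null livers. The control vehicle arrays set the reference, so their own gap is small by construction. On null tunicamycin 2 the class medians were 0.91 (cytosolic) and -0.21 (mitochondrial).

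**Figure D3:**
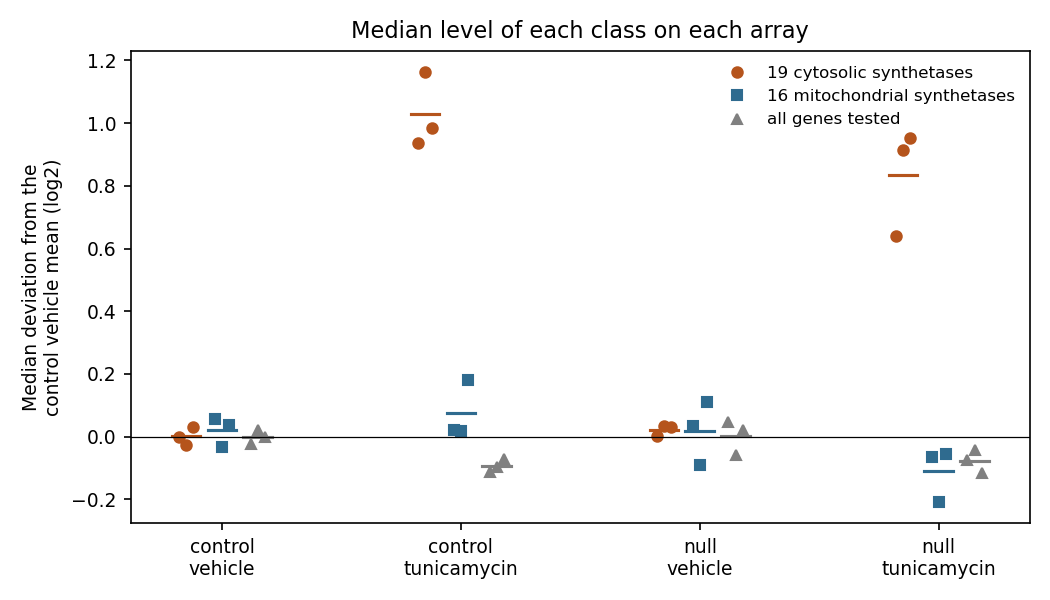
Median over each class of the log2 deviation from the control vehicle mean, for each array in the 4 groups; short bars are group means. Cytosolic synthetases lay at 0.94 to 1.16 with tunicamycin in control and 0.64 to 0.95 in null livers, while mitochondrial synthetases lay between -0.21 and 0.18 with tunicamycin.

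Of 17 pairs of a cytosolic and a mitochondrial gene for the same amino acid, the cytosolic member had the larger change in 14 in control livers and 15 in null livers. Eprs was paired with both Ears2 and Pars2, and Fars2 with both Farsa and Farsb, so not all pairs are separate. Gaps between pair members were not tested gene by gene. The median gap was 0.97 and 1.18 log2 units. Wars and Wars2 stood furthest apart, by 3.07 in control and 2.21 in null livers, and Iars and Iars2 by 2.17 and 2.06. The exceptions in control livers were Mars with Mars2 (-1.12), Cars with Cars2 (-1.01) and Eprs with Ears2 (-0.20). In null livers they were Mars with Mars2 (-0.93) and Eprs with Ears2 (-0.13). The classes still overlapped: 4 cytosolic genes in control and 5 in null livers changed more than Ears2, the mitochondrial gene with the largest rise.

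Within the cytosolic class, 5 of the 7 analysed members of the multi-synthetase complex rose and 1 fell in control livers, and 4 rose in null livers. Of all genes, 11.6% (control) and 7.59% (null) were called higher. Dars, also of the complex, was not analysed. Of the 12 members outside the complex, 9 rose in each genotype. The median change was 1.04 in the complex and 1.01 outside it in control livers, and 0.58 and 0.95 in null livers. By fold of the catalytic domain, 6 of 9 class I and 7 of 9 class II enzymes rose in control livers, and 6 and 6 in null livers, with Eprs holding both folds. Their medians were 1.04 and 0.98 in control and 0.62 and 0.90 in null livers.

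Of the 5 genes with the promoter element printed above, 4 were called higher in control livers (median 0.98) and 5 in null livers (median 1.16). Of the 7 matched cytosolic genes without it, 5 were called higher in control livers (median 1.04) and 3 in null livers (median 0.51). Over all tested genes with a matched promoter, 13.9% of those with the element and 12% of those without it were called higher in control livers, and 11.4% and 7.68% in null livers. These shares are a description of the letters in the windows, and Wars, Lars and Nars were not among the matched cytosolic genes.

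With vehicle, 0 of the 35 synthetases were called between null and control livers, and 0 of all 14568 genes by limma (0%). At an unadjusted p under 0.05 there were 597 genes, none a synthetase, and the fit with the replicate number as a block and that of the 2 groups alone each called 1 gene. Class medians were 0.07 (cytosolic) and 0.03 (mitochondrial). The 95% intervals of the 35 differences lay within -1.15 (Wars2) and 1.02 (Vars2). Their widths differed between genes, for example -0.24 to 0.31 for Nars and -1.08 to 0.71 for Lars2. Differences inside a gene's own interval were not resolved.

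With tunicamycin, null livers were lower than control livers in Qars and Cars2, where 3.99% of all tested genes were called, 0.755% higher and 3.23% lower. The Gapdh ratio also separated these groups, and its part was not tested beyond a fit with that ratio as a covariate. Cars2 read 8.98, 9.26 and 8.78 in control and 7.73, 7.93 and 7.65 in null livers, with every null array below every control array. The difference was -1.24 ± 0.16 (SE; limma adjusted p = 0.00109), 2.35-fold lower, and its dimmer probe set past the filter gave -0.95, uncalled (limma adjusted p over all probe sets = 0.103). It was called in all 26 alternatives. Qars read 11.02, 11.22 and 10.81 in control and 10.20, 10.45 and 10.14 in null livers, again without overlap (-0.75 ± 0.15, limma adjusted p = 0.0128), and its 3 dimmer probe sets gave -0.80, -0.75 and -0.31, all uncalled (limma adjusted p over all probe sets 0.0879 to 0.604). Qars lost its call without control tunicamycin 2 or null tunicamycin 1 or 3 (-0.72 to -0.65, limma adjusted p 0.0528 to 0.0797). It also lost it in the fit of the 2 groups alone (limma adjusted p = 0.0666) and without _x_at and _s_at probe sets (-0.80, 0.0877), to which its probe set belongs. Wars missed the threshold at -0.58 ± 0.17 (limma adjusted p = 0.102), with control arrays at 10.28 to 10.54 and null arrays at 9.48 to 10.04, which did not overlap. It passed in 4 alternatives, with centred medians (-0.67), probe sets averaged per gene (-0.79), array weights (-0.72) and without _x_at and _s_at probe sets (-1.31; limma adjusted p 0.00966 to 0.0337). Its 3 dimmer probe sets gave -0.70, -1.31 and -0.56, and only the one at -1.31 was called (limma adjusted p over all probe sets = 0.0141).

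Null arrays lay below control arrays without overlap for 7 of the 19 cytosolic genes (36.8%) and 3 of the 16 mitochondrial genes (18.8%), against 11.5% of all genes. The cytosolic genes were Qars, Kars, Lars and Rars of the complex and Wars, Nars and Tars outside it, and the mitochondrial genes were Cars2, Pars2 and Sars2. Aars was the only synthetase with null arrays above control arrays, where the share over all genes was 10.2%. The class medians were -0.16 (cytosolic) and -0.10 (mitochondrial), against 0.02 for all genes. With 3 arrays against 3, no overlap alone has an exact two-sided permutation p of 0.1, the smallest the design allows.

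The test of the difference between genotypes in the tunicamycin response, the interaction, called 1 mitochondrial gene, Cars2, and 0 cytosolic genes, where 0.837% of all tested genes were called, 0.0137% with a higher and 0.824% with a lower change in null livers. Cars2 responded by 1.15 log2 units less in null livers, an interaction of -1.15 ± 0.23 (SE; limma adjusted p = 0.0421; 95% interval -1.65 to -0.66). That call was lost without any 1 of 9 arrays, that is any but control tunicamycin 3, null vehicle 2 and null tunicamycin 2 (-1.19 to -1.02, limma adjusted p 0.0799 to 0.13). Its dimmer probe set gave -0.64. Of the cytosolic genes 3 had an unadjusted p under 0.05, and Qars came closest at -0.91 ± 0.21 (limma adjusted p = 0.0805; 95% interval -1.36 to -0.45). Qars passed in 4 alternatives, with limma adjusted p of 0.0242 to 0.0488. For Wars the interaction was -0.79 ± 0.25 (limma adjusted p = 0.26). Of the mitochondrial genes 3 had an unadjusted limma p under 0.05, where 1203 of all 14568 genes did. Besides Cars2 these were Pars2 (-0.65; 95% interval -1.11 to -0.18) and Sars2 (-0.56; -1.07 to -0.06), both uncalled. Median interactions were -0.13 (cytosolic), -0.10 (mitochondrial) and 0.03 (all genes).

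**Figure D4:**
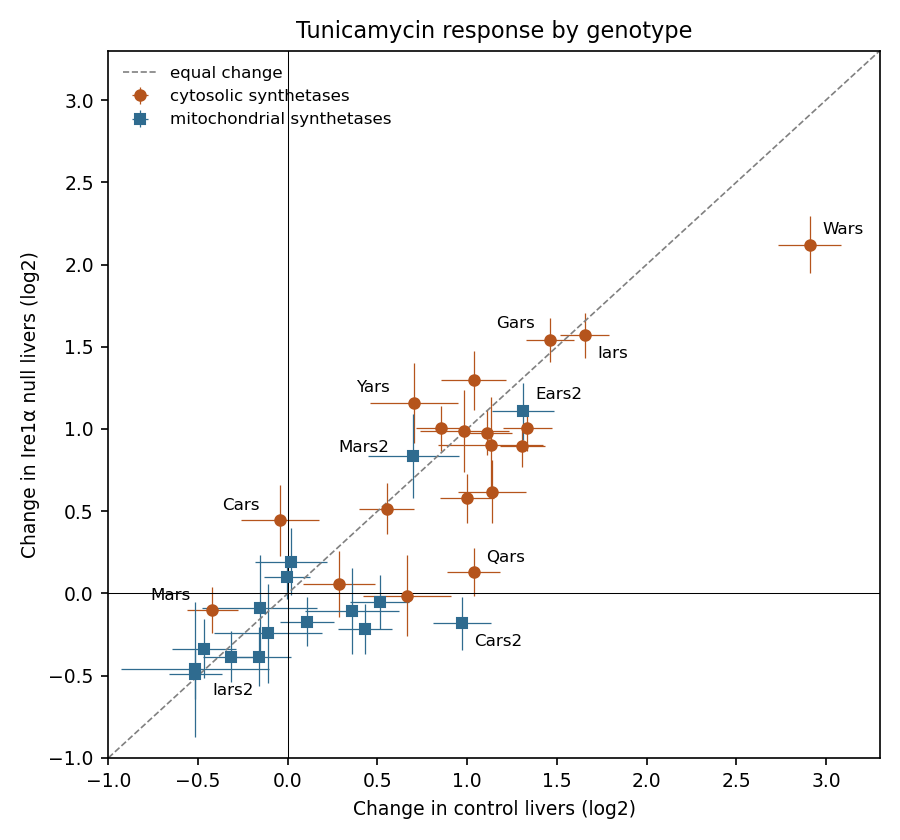
Log2 change with tunicamycin in control livers (horizontal axis) against that in Ire1α null livers (vertical axis) for 19 cytosolic and 16 mitochondrial synthetases, with SE bars; the dashed line marks equal change. Most cytosolic genes lie at the upper right near the line, and Cars2 (0.97 and -0.18) and Qars (1.04 and 0.13) lie well below it. Wars (2.91 and 2.12), Hars, Pars2 and Sars2 are among the other genes below it.

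More than 1 probe set passed the filter in 21 of the 35 genes, and the probe sets of a gene differed in sign in 3 of these in control livers (Cars, Farsa and Wars2) and 6 in null livers (Cars, Hars, Qars, Cars2, Ears2 and Wars2). Wars2 is a case where the choice of probe set changes the reading. Its brightest probe set changed by -0.16 and -0.09, and its other one by 0.88 and 0.70 in control and null livers (limma adjusted p over all probe sets = 0.00232 and 0.0164). The 4 probe sets of Eprs gave changes of 0.62 to 2.76 in control livers, and the one at 0.62 did not pass (limma adjusted p over all probe sets = 0.295). In null livers they gave 0.88 to 2.39, and only the brightest passed (limma adjusted p over all probe sets 0.0678 to 0.160 for the others).

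Genes that work beside the synthetases did not follow 1 pattern. Their counts stand beside 11.6% of all genes called higher and 13.3% lower in control livers, and 7.59% and 9.23% in null livers. Of the 3 scaffold proteins of the complex, 2 rose in each genotype: Aimp2 by 1.09 and 0.73, Aimp1 by 0.75 in control livers (0.14 and not called in null livers) and Eef1e1 by 0.75 in null livers (0.26 and not called in control livers). Of 11 genes of tRNA maturation and export, 4 rose and 1 fell in control livers and 3 rose and 1 fell in null livers. Trmt61a, the catalytic subunit of a tRNA methyltransferase, rose by 2.37 and 2.39, and Xpot, the tRNA export receptor, by 1.09 and 0.78. Elac2, which trims tRNA 3' ends, and Ctu1, of a tRNA thiolase, rose by 0.69 and 0.64 in control livers and were not called in null livers. Tsen15 rose by 0.72 in null livers, while Tsen34, like it a subunit of the tRNA splicing endonuclease, fell (-0.59 in control and -0.61 in null livers).

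Of 13 mitochondrial translation factors, 3 rose and 3 fell in control livers and 2 rose and 3 fell in null livers. Their median changes were -0.08 and -0.15. Gatb and Gatc, subunits of the amidotransferase that makes mitochondrial glutaminyl-tRNA, moved in opposite directions, at -0.79 and 1.01 in control and -0.82 and 0.90 in null livers. Gfm1, a mitochondrial elongation factor, fell (-0.83 and -0.63), and Mrm1, a mitochondrial rRNA methyltransferase, rose by 1.05 and 0.56. Of 7 synthetase relatives and tRNA editing factors, 0 rose and 1 fell in each genotype, near the share of all genes called lower: Dtd2, a D-aminoacyl-tRNA deacylase, at -0.97 and -1.21. Prorsd1 was lower in null than in control livers with tunicamycin (-0.72, limma adjusted p = 0.0424). Of 4 cytosolic elongation factors, 0 were called by limma in either genotype, and 1 and 0 had an unadjusted p under 0.05; Eef2 changed by 0.28 and 0.21.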

How the data were processed

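Liver RNA from 12 mice was labelled from 6 µg of total RNA and hybridised to 12 Affymetrix arrays, per the labels. The authors deposited a linear intensity for each of 45101 probe sets; the algorithm that summarised the probes and any scaling were not stated there. After 64 control probe sets were left out, the platform annotation gave a single symbol to 34945 probe sets, several to 932 and none to 9160; only the first kind was used. Intensities were taken as log2(value + 16) and quantile normalised with limma 3.58.1 in R 4.3.3. The dimmest 30% of probe sets were left out, and the brightest probe set per gene was kept.

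One linear model with 4 group means over 12 arrays (8 residual degrees of freedom) was fitted with lmFit and eBayes, with Benjamini-Hochberg adjustment over 14568 genes and a threshold of 0.05. It was also run on simulated data with independent normal noise. Those data held no outlying array and no shift in RNA ratios, so that run does not check for such features. The p-values measure the spread between samples that the labels call biological replicates. No label links the replicate numbers across groups, so the main fit held no block. Of 18 same-numbered pairs of deviations, 5 correlated over 0.1, and the range was -0.41 to 0.49. Between control vehicle and control tunicamycin the correlations were 0.24, -0.07 and 0.49 for replicates 1, 2 and 3. Whether the numbers mark pairs there was not settled. All listed synthetases were named, with Ern1, Atf4 and Ddit3, and up to 4 called genes per related list. For a list with no call, the 2 genes of smallest p were eligible. Members and lists were chosen with earlier results of these data known. The number of arrays limits the precision. Figures were drawn with matplotlib 3.10.9.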

Additional observations from a re-analysis of the deposited data

Results flagged for a closer look

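The cysteine enzyme of mitochondria, Cars2, was picked out because its response to tunicamycin differed between control and null livers by a test of the difference itself. The interaction was -1.15 on the log2 scale (limma adjusted p = 0.0421). Levels were higher on all 3 tunicamycin arrays than on all 3 vehicle arrays in control livers, and the groups overlapped in null livers. The call was not stable: it was lost in 6 of the alternatives with all arrays and without any 1 of 9 arrays, with values between -1.22 and -0.90 throughout. The cause was not tested.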

How the results depend on the processing

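Each result was recomputed in 26 alternatives, 12 of which left out 1 array; the fit of 2 groups gives no interaction. Of the 15 cytosolic calls with tunicamycin in control livers 11 were kept in all of them, and of the 13 in null livers 9; of the mitochondrial calls 2 of 4 and 0 of 3 were kept. The median cytosolic change rose to 1.25 with centred array medians and 1.27 on the deposited scale in control livers, and to 1.03 and 1.11 in null livers; its genotype difference with tunicamycin was -0.26 with centred medians, and its interaction -0.00373 with probe sets averaged per gene. The median mitochondrial change in control livers was 0.18 with centred medians, 0.20 on the deposited scale, 0.13 with the mean of probe sets and 0.18 with the actin ratio as covariate. In null livers it was -0.042, 0.031, -0.11 and -0.11 in these settings, and its interaction was -0.022 without _x_at and _s_at probe sets, -0.00498 with array weights and -0.19 with the actin ratio.

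Between genotypes with tunicamycin, cytosolic calls numbered 2 with centred medians, the mean of probe sets or the trend and robust options, 4 with array weights and 0 in the fit of the 2 groups alone; mitochondrial calls numbered 2 with array weights. Interaction calls numbered 1 in the cytosolic class (Qars) with a pseudocount of 64, centred medians, trend and robust options or array weights. They numbered 0 in the mitochondrial class with a pseudocount of 1, no dim filter, the deposited scale, the mean of probe sets, the replicate block or the actin ratio. Over all genes the interaction gave 71 and 186 calls with pseudocounts of 1 and 64, 225 with array weights and 65 with the actin ratio. The tunicamycin genotype difference gave 1284 with array weights and 364 from 2 groups, null livers 1487 from 2 groups, and control livers 1765 with the actin ratio.

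The replicate block gave 59 interaction calls over all genes, an adjusted p of 0.0933 for Cars2 (limma), and 1 vehicle genotype call, as did the fit of 2 groups (1). Of 18 same-numbered pairs, 7 correlated best with their own number.

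Leaving out 1 array gave these ranges. Cytosolic calls were 13 to 15 in control and 9 to 13 in null livers, 0 to 0 between genotypes with vehicle, 0 to 1 with tunicamycin and 0 to 0 for the interaction; mitochondrial calls were 2 to 6, 1 to 3, 0 to 0, 1 to 1 and 0 to 1. Median cytosolic changes were 0.95 to 1.10, 0.66 to 0.94, 0.0070 to 0.072, -0.21 to -0.11 and -0.29 to -0.084; mitochondrial ones were -0.045 to 0.11, -0.22 to -0.12, 0.012 to 0.11, -0.15 to 0.00493 and -0.20 to -0.050. Calls over all genes were 2584 to 4076, 1607 to 2411, 0 to 1, 280 to 589 and 23 to 129.

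Some genes passed only with an array left out or in another setting. In control livers Hars passed without control vehicle 2 or control tunicamycin 3 (0.87 to 0.94), Yars without control vehicle 1 or null vehicle 1 or 2 (0.70 to 0.89), Mars2 without control vehicle 1, control tunicamycin 2 or null tunicamycin 2 (0.70 to 0.96), Pars2 without control vehicle 3, null vehicle 1 or null tunicamycin 2 (0.43 to 0.52) and Fars2 without control vehicle 2 (-0.62). In null livers Farsa passed without null vehicle 2 or null tunicamycin 2 (1.07 to 1.26) and Nars2 without null vehicle 2 (-0.58). With the mean of its probe sets, the rise of Ern1 with tunicamycin turned to -0.086 in control and -0.00419 in null livers. The cause of these differences was not tested. With 3 arrays a group, differences inside a gene's own interval were not resolved.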
